A study of Mus musculus with 13 samples.

Results

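The 10 genes described here mark how macrophages are activated, and they were followed in 13 mouse tumors. The 5 inflammatory members were Tnf, Il1b, Il12a, Cd40 and Nos2, and the 5 alternative members were Arg1, Mrc1, Mgl2, Cd163 and Folr2. They are 10 of the 22180 genes measured, and they were chosen by name as widely used markers of the opposed macrophage states. The choice was made with earlier results of these data known. Each gene was read from the probe set that carries its symbol alone. All 10 had a single such probe set, and none was left out for low signal.

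Male C57BL/6 mice carried subcutaneous tumors of the Panc02 line, which derives from a mouse pancreatic ductal adenocarcinoma, and every array came from the tumor of its own mouse. DIO + HMB mice (n = 4) were fed a high-fat diet that brings on obesity (diet-induced obesity, DIO) and received HMB (β-hydroxy-β-methylbutyrate, a metabolite of leucine) in the diet. DIO mice (n = 3) ate the high-fat diet alone, control + HMB mice (n = 3) ate the control diet with HMB, and control mice (n = 3) ate the control diet alone. All 4 groups thus carried a transplanted tumor of 1 cell line, and none was a tumor arising in the pancreas. The mice of this experiment were also injected with gemcitabine or with its vehicle, and the labels do not say which of them these 13 mice received. Expression is given as log2 values normalized with RMA, and differences between groups are differences of log2 means. On arrays, the precision is limited by the number of arrays, here 3 or 4 to a group.

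Macrophages change their program with the signals around them. Interferon gamma and microbial products drive an inflammatory state that makes nitric oxide and cytokines, whereas interleukin 4, interleukin 13, glucocorticoids and tissue signals favor alternative states that scavenge, take up debris and process arginine into ornithine. Both kinds of state are described in tumors, where alternative states are linked to a weaker immune response. The states are not exclusive, and several of the genes are also made by other cells. In whole tumors, fewer cells of a type and less RNA per cell cannot be told apart. The whole-tumor RNA held the cells in question, since the general macrophage genes Adgre1 (7.61 to 8.77), Csf1r (9.73 to 10.3) and C1qa (9.57 to 10.2) had log2 values in these ranges over the 13 tumors, and the tumor keratin Krt18 lay between 8.99 and 9.97.

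Stretches before the RefSeq promoter starts are shown first. The alternative members Folr2, Cd163 and Mrc1 varied together across tumors (pairwise r from 0.66 to 0.92). Tnf and Il1b followed them less closely (r from −0.05 to 0.36 with these members). Whether the letters bear on this was not tested. Of the 10 members, 7 matched the RefSeq promoter table of the build GRCm38.p6, and Nos2, Cd40 and Arg1 were not in it. Capitals mark matches, on either strand, to AGGAAGT (a core bound by PU.1, the ETS factor that macrophages need), a loose NF-kB pattern (GGGA, then any 4 bases, then CC), a STAT6 pattern (TTC, then any 4 bases, then GAA) or TATAAA (the TATA box). The 250 bases before the RefSeq promoter start of 4 alternative members and the last 60 bases before that of 2 inflammatory members read, 5′ to 3′:
Folr2, chr7:101857191-101857440, minus strand: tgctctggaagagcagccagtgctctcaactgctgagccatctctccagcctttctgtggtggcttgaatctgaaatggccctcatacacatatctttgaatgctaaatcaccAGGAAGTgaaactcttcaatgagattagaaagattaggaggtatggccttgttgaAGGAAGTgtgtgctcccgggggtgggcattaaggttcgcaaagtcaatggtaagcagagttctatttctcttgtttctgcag
Cd163, chr6:124304401-124304650, plus strand: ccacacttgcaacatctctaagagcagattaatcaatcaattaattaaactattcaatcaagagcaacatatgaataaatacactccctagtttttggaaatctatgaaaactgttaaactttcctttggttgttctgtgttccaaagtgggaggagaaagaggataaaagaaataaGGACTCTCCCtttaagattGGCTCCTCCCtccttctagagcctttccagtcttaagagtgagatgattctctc
Mrc1, chr2:14229164-14229413, plus strand: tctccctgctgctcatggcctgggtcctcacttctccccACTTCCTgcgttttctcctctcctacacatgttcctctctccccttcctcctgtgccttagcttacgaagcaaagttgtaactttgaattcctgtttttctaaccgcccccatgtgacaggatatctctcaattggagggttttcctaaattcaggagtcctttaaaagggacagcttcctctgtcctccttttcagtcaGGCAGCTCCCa
Mgl2, chr11:70130107-70130356, plus strand: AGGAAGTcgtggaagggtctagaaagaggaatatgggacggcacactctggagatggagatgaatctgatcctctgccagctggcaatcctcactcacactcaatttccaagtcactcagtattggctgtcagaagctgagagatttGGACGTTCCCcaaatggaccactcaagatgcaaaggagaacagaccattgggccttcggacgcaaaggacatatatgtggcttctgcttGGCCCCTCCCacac
Tnf, chr17:35202008-35202067, minus strand: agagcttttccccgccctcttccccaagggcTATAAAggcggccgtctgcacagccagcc
Il1b, chr2:129371140-129371199, minus strand: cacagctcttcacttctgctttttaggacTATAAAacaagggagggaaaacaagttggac

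AGGAAGT occurred 2 times in the Folr2 stretch and 1 time each in those of Mrc1 and Mgl2, whereas that of Cd163 held none. Upstream of Tnf it lay at −84 to −78 from the start, outside the bases printed. Of all 32851 promoter stretches of this length, 7.69% held AGGAAGT. The NF-kB pattern was found in the stretches of Mrc1, Cd163, Mgl2 and 1 of the 2 starts of Il12a, and in 17.6% of all stretches. The annotated span of Mgl2 begins at 70130125, inside its printed stretch, so both of its NF-kB matches lie within that span. The annotated spans of Cd163 (124304636) and Il1b (129371164) also begin inside theirs. TATAAA was found just before the starts of Il1b (−31 to −26) and Tnf (−29 to −24) and in no other member, against 12.4% of all stretches. The STAT6 pattern was found only upstream of Il12a, against 5.85% of all. The last 3 bases of the STAT6 pattern also lie within AGGAAGT, but no matches of different patterns overlapped in these members. A match describes the letters and does not show that a factor binds there, and a second annotated start of Folr2 held none of the patterns. The patterns were chosen after their matches were seen. These counts and shares therefore cannot test whether the members, or either kind of them, hold more matches than other genes.

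Folr2 varied most among the members. Folr2 is a folate receptor found on tissue-resident macrophages, and its log2 values spanned 4.50, a 22.6-fold range, so that only 56 of the 22180 genes had a larger SD over the 13 tumors. Arg1 (6.98-fold), Mgl2 (6.09-fold) and Cd163 (5.19-fold) followed, and Mrc1 had the narrowest range at 1.70-fold. Of the 10 members, 9 had a larger SD over tumors than the median gene (0.25), with Mrc1 (0.24) below it. Most of this variation lay within the groups. Group means accounted for a median of 19.6% of the variance of a member, against 27.5% for the median of all genes. The largest shares were those of Cd163 (35.2%) and Il12a (33.6%), and the smallest was that of Tnf (7.52%).

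**Figure D1:**
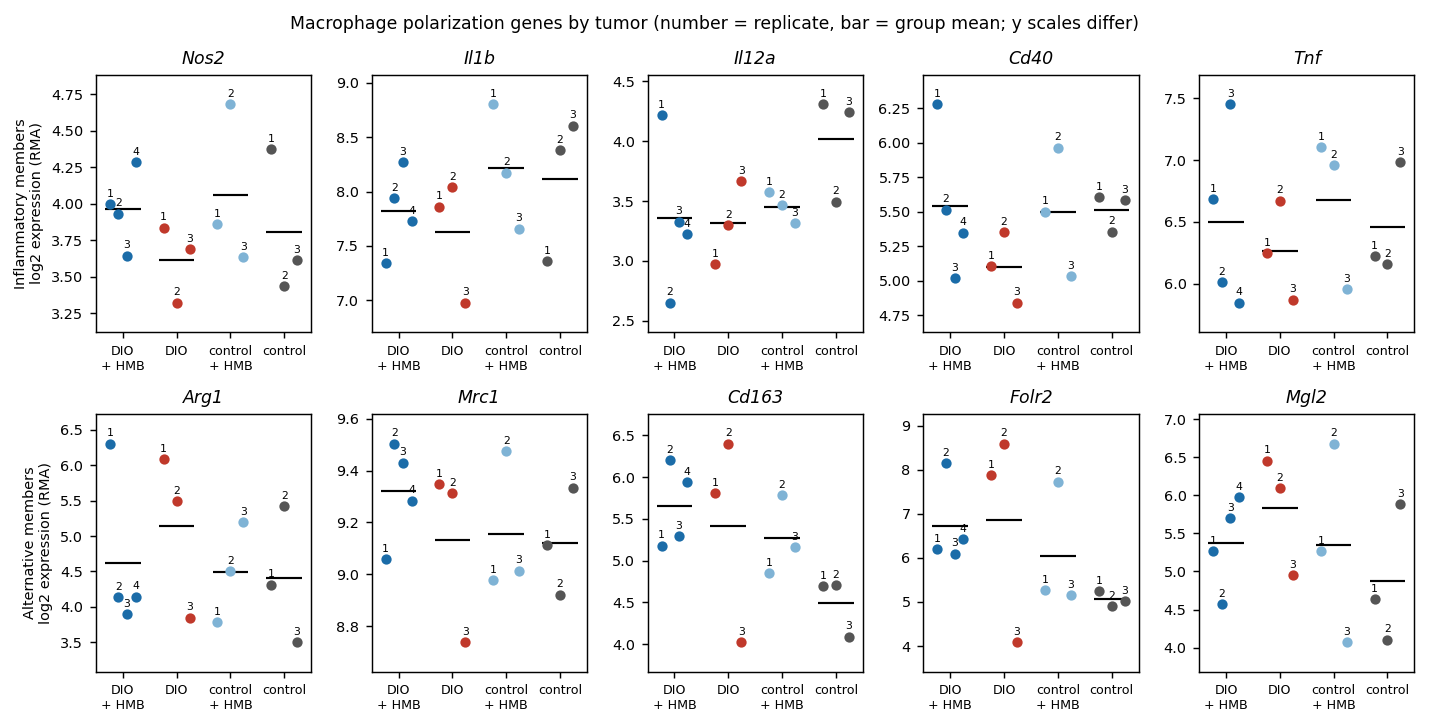
Log2 expression (RMA) of the 5 inflammatory members (upper row) and 5 alternative members (lower row) in each tumor, with a scale of its own for each gene. Points are tumors numbered by replicate, and bars are group means; Folr2 ranged from 4.09 to 8.59 within the DIO group alone.

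Among the inflammatory members, the cytokines are taken first. Tnf encodes tumor necrosis factor, a secreted cytokine that activates NF-kB in its target cells. Its log2 values were 6.68, 6.01, 7.45 and 5.85 in DIO + HMB tumors, 6.25, 6.67 and 5.87 in DIO tumors, 7.10, 6.96 and 5.95 in control + HMB tumors, and 6.23, 6.16 and 6.98 in control tumors. Every group held tumors near 6 and tumors near 7 or above, apart from DIO, whose highest tumor reached 6.67, and all groups overlapped.

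Il1b encodes interleukin 1β, which needs the inflammasome for its release. It was at 7.34, 7.94, 8.27 and 7.73 in DIO + HMB tumors, 7.86, 8.04 and 6.98 in DIO tumors, 8.80, 8.17 and 7.66 in control + HMB tumors, and 7.36, 8.38 and 8.61 in control tumors. The lowest value belonged to a DIO tumor and the highest to a control + HMB tumor, with overlap between all groups.

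Il12a encodes the p35 subunit that Il12b completes to interleukin 12, the cytokine that drives T cells to make interferon gamma. Its values were 4.22, 2.65, 3.33 and 3.22 in DIO + HMB tumors, 2.98, 3.30 and 3.67 in DIO tumors, 3.57, 3.46 and 3.31 in control + HMB tumors, and 4.31, 3.49 and 4.24 in control tumors. Of the 3 tumors above 4, 2 were control tumors and 1 was a DIO + HMB tumor, so that control overlapped DIO + HMB and, through its lowest tumor, the other groups too.

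Cd40 encodes the receptor through which T cells carrying CD40 ligand activate macrophages, dendritic cells and B cells. It was at 6.28, 5.51, 5.02 and 5.35 in DIO + HMB tumors, 5.11, 5.35 and 4.84 in DIO tumors, 5.50, 5.96 and 5.03 in control + HMB tumors, and 5.61, 5.36 and 5.59 in control tumors. The 3 DIO tumors lay below the 3 control tumors, although by a narrow margin (5.35 against 5.36), and the other pairs of groups overlapped. Nos2 encodes inducible nitric oxide synthase, which makes nitric oxide from arginine. It was at 4.00, 3.93, 3.65 and 4.28 in DIO + HMB tumors, 3.84, 3.32 and 3.69 in DIO tumors, 3.86, 4.68 and 3.63 in control + HMB tumors, and 4.37, 3.44 and 3.62 in control tumors, and no pair of groups separated.

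Among the alternative members, Arg1 encodes arginase 1, which turns arginine into ornithine and so draws on the same substrate as Nos2. Its values were 6.31, 4.14, 3.89 and 4.14 in DIO + HMB tumors, 6.08, 5.49 and 3.85 in DIO tumors, 3.78, 4.50 and 5.20 in control + HMB tumors, and 4.31, 5.42 and 3.50 in control tumors. Tumors above 5 occurred in every group, and 3 of the 4 DIO + HMB tumors lay between 3.89 and 4.14. Mrc1 encodes the mannose receptor CD206, an endocytic lectin. It stayed between 8.74 and 9.50, at 9.06, 9.50, 9.43 and 9.28 in DIO + HMB tumors, 9.35, 9.31 and 8.74 in DIO tumors, 8.98, 9.47 and 9.01 in control + HMB tumors, and 9.11, 8.92 and 9.33 in control tumors, and no pair of groups separated.

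Mgl2 encodes CD301b, a lectin that binds galactose-type sugars and is found on macrophages and dendritic cells. It was at 5.27, 4.57, 5.71 and 5.98 in DIO + HMB tumors, 6.46, 6.09 and 4.95 in DIO tumors, 5.27, 6.68 and 4.07 in control + HMB tumors, and 4.63, 4.11 and 5.89 in control tumors. Control and control + HMB each held 1 tumor well above its 2 others. Cd163 encodes the scavenger receptor for hemoglobin bound to haptoglobin. Cd163 was at 5.18, 6.20, 5.30 and 5.94 in DIO + HMB tumors, 5.81, 6.40 and 4.03 in DIO tumors, 4.85, 5.79 and 5.16 in control + HMB tumors, and 4.70, 4.70 and 4.09 in control tumors. All DIO + HMB tumors and all control + HMB tumors exceeded all control tumors, while the DIO group held both the lowest and the highest value of the 13.

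Folr2 had values of 6.20, 8.15, 6.10 and 6.43 in DIO + HMB tumors, 7.88, 8.59 and 4.09 in DIO tumors, 5.27, 7.73 and 5.15 in control + HMB tumors, and 5.25, 4.90 and 5.03 in control tumors. The control tumors kept within a narrow band at the low end. The DIO + HMB tumor at 8.15 also had the highest adipocyte (2.54) and endothelial (0.61) scores of the 13, scores being means of log2 values centred on each gene's mean over the tumors, and their part in it was not tested. Tumors at 7.73 or above occurred in each of the other 3 groups, and the DIO group again held both the lowest and the highest value of all 13.

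The first comparison asked how obesity alone related to these genes. DIO tumors had lower mean levels of all 5 inflammatory members and higher mean levels of all 5 alternative members than control tumors, where 46.2% of all genes were lower and 53.8% higher, but no member passed the test. The alternative members with the largest differences were Folr2 (6.86 in DIO and 5.06 in control tumors, log2 difference 1.79, SE 1.01, 3.47-fold), Mgl2 (5.83 and 4.88, 0.96, SE 0.64) and Cd163 (5.41 and 4.50, 0.92, SE 0.50). Arg1 differed by 0.73 (SE 0.71) and Mrc1 by 0.01 (SE 0.20). With each array centred on its median, Mrc1 turned to −0.04, so that 4 of the 5 alternative members were higher.

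The inflammatory members differed less. Il12a averaged 3.32 in DIO and 4.02 in control tumors (−0.70, SE 0.34), Il1b 7.63 and 8.12 (−0.49, SE 0.39) and Cd40 5.10 and 5.52 (−0.42, SE 0.29). The signal of Il12a was low, since its mean over the 13 tumors (3.52) lay below the array medians (3.65 to 3.75). Nos2 and Tnf each differed by −0.19. In the limma fit with Benjamini-Hochberg adjustment over all genes, the lowest adjusted p of a member was 0.652 (Il12a, unadjusted p = 0.0583), and 0 of the 10 members reached an unadjusted p of 0.05, against 7.74% of all genes. No gene of the 22180 was called at an adjusted p of 0.05 here (0%), nor was any member with the plain t statistic in this or any other comparison. Cd40 was the 1 member whose groups did not overlap, where 11% of all genes did not. Medians were −0.42 for the inflammatory and 0.92 for the alternative members, beside 0.02 for all genes.

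The size of these differences turned on replicate 3 of the DIO group. It was the lowest of the 13 tumors for 5 of the 10 members (Il1b, Cd40, Mrc1, Cd163 and Folr2), while replicates 1 and 2 had all 5 alternative members above their means over the 13 tumors. Without it, Folr2 differed by 3.18 and Cd163 by 1.61 between DIO and control tumors (limma, adjusted p = 0.386 for both), Arg1 by 1.38 and Mgl2 by 1.40. In that fit 3 members reached an unadjusted p of 0.05, but the share of all genes doing so is not given. The count therefore cannot show an excess. None was called, and the difference of Tnf was 0.0045. In the same tumor, 8 of 18 gene lists other than the members scored lowest of the 13, among them fibroblast genes (mean centred log2 value −1.12), mast cell and eosinophil genes (−1.51) and T cell genes (−0.73), whereas its score for 15 general macrophage genes was 0.03, within the range of the other tumors. Over the whole groups, T cell genes were lower on average in DIO than in control tumors in 6 of 7 (median −0.61, scores from −0.73 to −0.21 in DIO and from −0.23 to 0.46 in control tumors), and without replicate 3 in 7 of 7 (median −0.38). Mast cell and eosinophil genes were lower in 7 of 9 (median −0.46), but without replicate 3 in 3 of 9 (median 0.14). None of them passed. The part of these values in the DIO result was not tested.

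**Figure D2:**
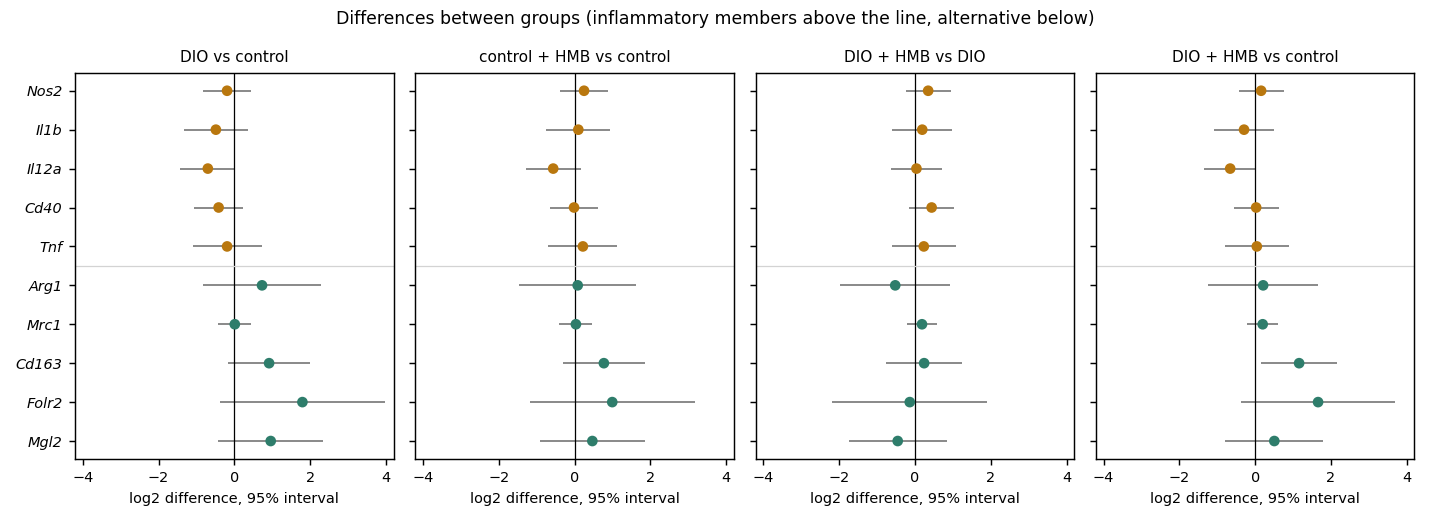
Log2 difference of each member with its 95% interval from limma in 4 comparisons, with inflammatory members above the grey line and alternative members below it. In DIO against control tumors all inflammatory members lie at or below 0 and all alternative members at or above it, and the interval of Cd163 in DIO + HMB against control tumors (0.15 to 2.17) is the only one that leaves out 0.

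The second comparison asked how HMB alone related to the members on the control diet. It uses the same control tumors as the first, so the comparisons are not independent. All 5 alternative members and 3 of the 5 inflammatory members were higher on average in control + HMB than in control tumors, where 55.4% of all genes were higher and 44.6% lower, but none passed the test, and after centring these counts were 3 and 2, with Arg1, Mrc1 and Il1b turned to −0.06, −0.10 and −0.04. Centring moved the median of all genes by −0.14 here. Cd163 was higher in each control + HMB tumor than in any control tumor (means of 5.27 and 4.50, difference 0.77, SE 0.50), the only one of the 10 members without overlap, where 17.4% of all genes had none. Folr2 averaged 6.05 and 5.06 (0.99, SE 1.01), which rested on replicate 2 of control + HMB: without it the difference was 0.15. Without the same tumor, Mgl2 differed by −0.20 in place of 0.47 and Nos2 by −0.06 in place of 0.25.

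Il12a averaged 3.45 in control + HMB and 4.02 in control tumors (−0.57, SE 0.34) and had the lowest adjusted p of the members (limma, 0.539). The low signal of Il12a limits this value too. The differences of Il1b (0.10), Tnf (0.22), Nos2 (0.25) and Cd40 (−0.02) were smaller than their SEs. None of the 10 members reached an unadjusted p of 0.05, against 11.4% of all genes, and 0 genes were called after adjustment (0%).

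The third comparison asked what HMB did in obese mice. All 5 inflammatory members were higher on average in DIO + HMB than in DIO tumors, 4 of 5 after centring (Il12a turned to −0.08), and 3 of the 5 alternative members were lower, but none passed the test. Of all genes, 47.9% were higher and 52.1% lower here. Cd40 averaged 5.54 in DIO + HMB and 5.10 in DIO tumors (0.44, SE 0.28, 1.36-fold, limma adjusted p = 0.741, unadjusted 0.135). Nos2 averaged 3.97 and 3.62 (0.35, SE 0.27), Tnf 6.50 and 6.26 (0.23, SE 0.39), Il1b 7.82 and 7.63 (0.19, SE 0.36) and Il12a 3.36 and 3.32 (0.04, SE 0.31).

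Arg1 was lower in DIO + HMB than in DIO tumors (4.62 and 5.14, −0.52, SE 0.67), as were Mgl2 (5.38 and 5.83, −0.45, SE 0.60) and Folr2 (6.72 and 6.86, −0.14, SE 0.94), whereas Cd163 (0.24, SE 0.47) and Mrc1 (0.19, SE 0.19) were higher. No member's groups were free of overlap, where 7.79% of all genes were, and 0 of 10 reached an unadjusted p of 0.05, against 7.08% of all genes. After adjustment 0 genes were called (0%). Medians were 0.23 for the inflammatory and −0.14 for the alternative members, beside −0.01 for all genes.

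Several of these values turned on 1 tumor. Without replicate 3 of DIO, Folr2 differed by −1.52, Arg1 by −1.17, Cd163 by −0.45 and Il1b by −0.13 between DIO + HMB and DIO tumors. Replicate 1 of DIO + HMB was the highest of all 13 tumors for Cd40 (6.28) and Arg1 (6.31), and without it Cd40 differed by 0.19, Il12a by −0.25 and Arg1 by −1.08. That tumor also had the highest score for B cell genes (3.99, 8 of 9 listed genes measured) and T cell genes (1.33, 7 of 9 measured). The B cell scores ran from −0.52 to 3.99 in DIO + HMB and from −0.59 to −0.42 in DIO tumors, and the T cell scores from −0.23 to 1.33 and from −0.73 to −0.21. All 8 B cell genes and all 7 T cell genes had higher means in DIO + HMB than in DIO tumors, with log2 medians of 1.26 and 0.72, and none passed. Without replicate 1 of DIO + HMB, 5 of 8 B cell genes were higher (median 0.11) and 7 of 7 T cell genes (median 0.39). B cells and other antigen-presenting cells carry CD40, and the part of these cells in the value of Cd40 was not tested.

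Set against control tumors, DIO + HMB tumors had no overlap for 2 of the 10 members, both alternative and both higher. Of all genes, 14.9% had no overlap in either direction, so the count is near that share. The 2 members also varied together (r = 0.92 over the 13 tumors), so they are not separate observations. Cd163 averaged 5.66 in DIO + HMB and 4.50 in control tumors (1.16, SE 0.47, 2.23-fold), and Folr2 averaged 6.72 and 5.06 (1.66, SE 0.94, 3.16-fold). Every DIO + HMB tumor lay above every control tumor for both. Cd163 was the 1 member with an unadjusted p under 0.05 (0.0282), against 14.8% of all genes, and its limma adjusted p was 0.278. No gene was called after adjustment (0%). Il12a, again at low signal, averaged 3.36 and 4.02 (−0.66, SE 0.31, limma adjusted p = 0.350), and without replicate 1 of DIO + HMB it differed by −0.95.

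The other members were closer. Mgl2 differed by 0.50 (SE 0.60), Arg1 by 0.21 (SE 0.67), Mrc1 by 0.20 (SE 0.19) and Il1b by −0.30 (SE 0.36). Nos2 (0.16), Tnf (0.04) and Cd40 (0.02) were higher on average as deposited and lower after centring (−0.02, −0.13 and −0.15), which moved the median of all genes by −0.17. All 5 alternative members were higher under both scalings, where 51.2% of all genes were higher and 48.8% lower as deposited. This comparison again shares its control tumors with the first and second.

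Between DIO + HMB and control + HMB tumors, 5 of 5 alternative and 1 of 5 inflammatory members were higher (44% of all genes were higher and 56% lower), the largest difference was that of Folr2 (0.67, SE 0.94), and no member's groups were free of overlap, against 4.34% of all genes. None reached an unadjusted p of 0.05, against 2.85% of all genes (limma, lowest adjusted p = 1.00, 0% called). Averaged over HMB, DIO differences were below 0 for 5 of 5 inflammatory members (49.8% of all genes) and above 0 for 5 of 5 alternative members (50.2% of all genes). They ran from −0.44 (Il1b) to 1.23 (Folr2), with 0 of 10 members at an unadjusted p of 0.05 against 5.27% of all genes. Averaged over diets, HMB differences were above 0 for 4 of 5 inflammatory and 4 of 5 alternative members as deposited and for 4 and 2 after centring, where 52% of all genes were above 0 and 48% below as deposited. They ran from −0.26 (Il12a) to 0.51 (Cd163), with 0 of 10 against 13.9%. The interaction, the HMB difference in DIO minus that in control diet, was above 0 for all 5 inflammatory members and below 0 for 4 of 5 alternative members (43.4% of all genes were above 0 and 56.6% below), with Folr2 at −1.13 (SE 1.38), Mgl2 at −0.92 (SE 0.87) and Il12a at 0.61 (SE 0.46). None of them passed (lowest adjusted p = 0.933, 0 of 10 at an unadjusted p of 0.05 against 4.82% of all genes), so no difference in the response to HMB between diets was shown for any member. Over all 4 groups, the F test gave 0 members at an unadjusted p of 0.05 against 9.4% of all genes, with a lowest adjusted p of 0.620 (Cd163).

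To set both kinds of gene against each other in each tumor, every gene was centred on its mean over the 13 tumors, and the mean of the alternative members was subtracted from that of the inflammatory members. A balance above 0 means that the inflammatory members stood higher relative to their own averages. The balance was −0.01, −0.61, 0.15 and −0.38 in DIO + HMB tumors, −1.22, −1.15 and 0.57 in DIO tumors, 0.83, −0.30 and 0.09 in control + HMB tumors, and 0.66, 0.45 and 0.93 in control tumors. All 4 DIO + HMB tumors and 2 of the 3 DIO tumors lay below all control tumors, and the third DIO tumor lay among them.

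Group means were −0.21 ± 0.35 in DIO + HMB (SD, n = 4), −0.60 ± 1.01 in DIO (n = 3), 0.21 ± 0.57 in control + HMB (n = 3) and 0.68 ± 0.24 in control tumors (n = 3). The difference was −1.28 for DIO against control, −0.89 for DIO + HMB against control, −0.47 for control + HMB against control, and 0.39 for DIO + HMB against DIO, beside a pooled SD within groups of 0.59. These values describe members chosen by name with earlier results of these data known, and so they carry no test. Leaving out each member in turn gave −1.50 to −1.05 for DIO against control and 0.29 to 0.48 for DIO + HMB against DIO, and the balance is by construction the same after centring. Single tumors moved it further. For DIO + HMB against DIO the difference was 0.97 without DIO replicate 3, 0.08 without DIO replicate 1 and 0.11 without DIO replicate 2, and for control + HMB against control it was −0.22 without control + HMB replicate 2 and −0.78 without control + HMB replicate 1.

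**Figure D3:**
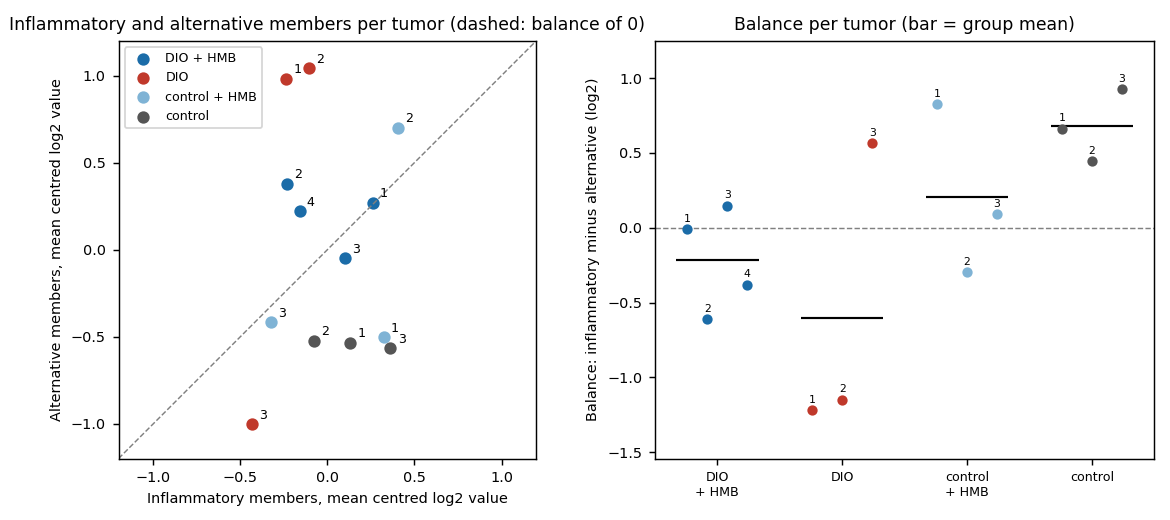
Left, the mean centred log2 value of the 5 alternative members (y axis) against that of the 5 inflammatory members (x axis) in each tumor, numbered by replicate, with a dashed line where both are equal. Right, the balance, inflammatory minus alternative, per tumor with group means as bars; all 4 DIO + HMB tumors lie below the 3 control tumors, and the DIO group runs from −1.22 to 0.57.

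The alternative members carried most of the spread of the balance. Their mean centred value was −0.54 ± 0.02 in control tumors (SD, n = 3), and it lay between −0.05 and 0.38 in DIO + HMB tumors, between −1.0 and 1.04 in DIO tumors, and between −0.50 and 0.70 in control + HMB tumors. The inflammatory mean lay between −0.44 and 0.40 over all 13. Control + HMB replicate 2 was high for both kinds of gene (0.40 inflammatory and 0.70 alternative) and DIO replicate 3 low for both (−0.44 and −1.0), so the kinds were not opposed from tumor to tumor. Of the 25 pairs made of 1 inflammatory and 1 alternative member, 16 had a correlation above 0 over the 13 tumors, with a median Pearson r of 0.13.

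Pairs of alternative members went together more closely. Cd163 and Folr2 had r = 0.92 over the 13 tumors (0.92 within groups, and 0.87 without the 2 tumors farthest from the median of Folr2), Folr2 and Mrc1 had r = 0.77, and the median of the 10 alternative pairs was 0.46. Arg1 stood aside, with r between −0.08 and 0.36 to the other alternative members. The median of the 10 inflammatory pairs was 0.20, the highest being Il1b with Tnf (0.63, or 0.47 without the 2 tumors farthest from the median of Il1b). The lowest of all pairs was Il12a with Cd163 (−0.69). These correlations are descriptions over tumors that share their mix of cells, with no test.

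The genes whose levels ran most closely with each member over the 13 tumors were picked by highest r among all 22180. Most of the 22180 genes are on no macrophage list, so it means little that the picked genes mostly are not either. Picking the highest r of so many genes over 13 tumors gives high values even without a link. The r values of the picked genes therefore carry no test. Folr2 ran with Ccl11 (eotaxin, r = 0.98), Tnxb (tenascin-X, a matrix protein of connective tissue, 0.98) and Scn7a (a sodium channel, 0.96). Ccl11 had values of 6.19, 7.26, 6.03 and 6.26 in DIO + HMB tumors, 7.24, 7.71 and 4.74 in DIO tumors, 5.65, 7.38 and 5.21 in control + HMB tumors, and 5.61, 4.67 and 4.99 in control tumors. The same 4 tumors that were highest for Folr2 were highest for Ccl11. Cd163 ran with Scn7a (0.94), Folr2 itself and F13a1 (coagulation factor XIII A chain, 0.92), and Mrc1 with Apod (apolipoprotein D, 0.95), Slfn5 (0.93) and Cilp (a cartilage matrix protein, 0.92).

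**Figure D4:**
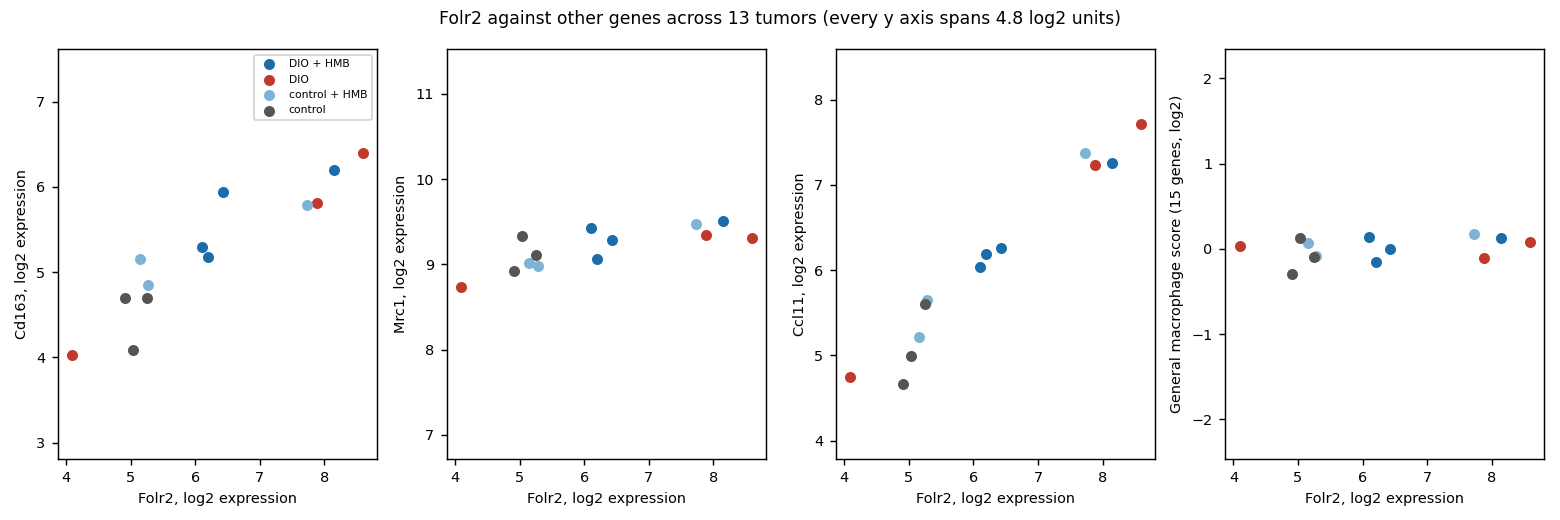
Log2 expression of Cd163, Mrc1 and Ccl11 and the score of 15 general macrophage genes (y axes, all 4 spanning the same number of log2 units) against log2 expression of Folr2 (x axes) in each of the 13 tumors, colored by group. Cd163 and Ccl11 climb with Folr2 (r = 0.92 and 0.98), Mrc1 climbs over a narrow range (r = 0.77), and the general macrophage score stays between −0.30 and 0.18. That score is a mean of 15 genes, so its span is not comparable with that of a single gene.

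Folr2 had r = 0.70 with the fibroblast score, 0.81 with the lymphatic endothelial score (0.51 without Lyve1, which is 1 of its 6 measured genes and is also in the wider alternative list), 0.67 with the endothelial score and 0.32 with the general macrophage score. The general macrophage score itself spanned only 0.48 over the tumors, and the r of Folr2 was 0.14 with Adgre1, 0.17 with C1qa and 0.43 with Csf1r. Fibroblast scores ran from −0.33 to 0.52 in DIO + HMB, from −1.12 to 0.69 in DIO, from −0.66 to 0.39 in control + HMB and from −0.67 to 0.53 in control tumors, with all 8 listed genes measured. The part of such cells in the values of Folr2 and Cd163 was not tested.

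Among the inflammatory members, Cd40 ran with the T cell receptor chain gene Cd3e (r = 0.92), Tmem71 (0.91) and Epsti1 (0.91), and had r = 0.90 with the T cell score and 0.74 with the B cell score. Il1b ran with Fam172a (0.93), Cdx2 (0.91) and Ccl3 (0.87), the last a macrophage chemokine. The closest genes were Mndal (0.92), Rgsl1 and Nom1 for Il12a, Nol4l (0.85), H2-T23 and Mical1 for Tnf, and Calml3 (0.90), Rogdi and Tulp1 for Nos2. They were Gabra2 (0.87), Cacna1b and AU018091 for Arg1, and Ebp (0.92), Oat and Nup54 for Mgl2. Oat encodes ornithine aminotransferase, which acts on the ornithine that arginases make, but it was picked for Mgl2 and not for Arg1. A link of Oat to arginase was not tested. The closest genes named here were also picked by highest r among all genes, so their r values carry no test.

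Wider lists were set beside the members. Of 25 further alternative genes 24 were measured, and 0 passed in any comparison. They were higher on average in 20 of 24 for DIO against control, 23 of 24 for control + HMB against control, 19 of 24 for DIO + HMB against DIO and 21 of 24 for DIO + HMB against control, where 53.8%, 55.4%, 47.9% and 51.2% of all genes were higher. Medians were 0.28, 0.33, 0.25 and 0.62, beside 0.02, 0.04, −0.01 and 0.01 for all genes. After each array was centred the counts were 20, 20, 16 and 19 of 24 and the medians 0.23, 0.19, 0.13 and 0.45. Single tumors moved these values. Without replicate 3 of DIO the list was higher in 10 of 24 genes in DIO + HMB against DIO, with a median of −0.03, and in DIO against control the median was 0.66. Without replicate 2 of control + HMB it was higher in 15 of 24 in control + HMB against control, with a median of 0.07, and without replicate 2 of DIO + HMB the median in DIO + HMB against DIO was 0.16.

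Adipocyte genes are set beside this list. Of 9 listed 7 were measured, and they were higher in 5, 7, 7 and 7 of 7 in the same 4 comparisons, with medians of 0.29, 0.54, 1.11 and 1.38 as deposited and of 0.24, 0.40, 0.99 and 1.21 after centring, with 0 passing. Their score ran from −1.07 to 2.54 in DIO + HMB, from −1.53 to 0.57 in DIO, from −0.31 to 0.68 in control + HMB and from −1.77 to 0.89 in control tumors, so all groups overlapped. It had r = 0.66 with the score of the wider alternative list over the 13 tumors, or 0.63 with Pparg, which both lists hold, left out of each, and r = 0.66 with Cd163, 0.58 with Folr2 and −0.65 with Il12a. The part of adipocytes in these values was not tested.

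The genes of lowest p in the wider alternative list were Pparg (a fat-sensing nuclear receptor, 1.12, SE 0.40, limma adjusted p = 0.705) and Klf4 (a transcription factor, −0.43, SE 0.19, adjusted p = 0.705) in DIO + HMB against DIO, and Chil3 (a chitinase-like lectin, 0.97, SE 0.34, adjusted p = 0.271) for HMB averaged over diets.

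Lyve1, the hyaluronan receptor of lymphatic vessels and of a subset of tissue macrophages, belonged to this list and followed Folr2 (r = 0.92). Its values were 7.41, 7.54, 5.0 and 6.17 in DIO + HMB tumors, 7.11, 7.85 and 3.40 in DIO tumors, 4.43, 6.92 and 4.81 in control + HMB tumors, and 4.24, 4.70 and 4.01 in control tumors. All DIO + HMB tumors lay above all control tumors (2.21, SE 0.96, limma adjusted p = 0.313), where 14.9% of all genes had no overlap. Lyve1 was named for its likeness to Folr2, after its values were seen.

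Of 24 further inflammatory genes, 21 were measured and 0 passed. They were higher in 11, 16, 12 and 13 of 21 in the same 4 comparisons, with medians of 0.03, 0.23, 0.09 and 0.06 as deposited, which were −0.02, 0.10, −0.03 and −0.12 after centring. In DIO against control tumors, where all 5 inflammatory members had lower means, 10 of these 21 genes did. Gpr18, a lipid receptor used as an inflammatory macrophage marker in mice, was at 7.93, 6.60, 6.77 and 6.40 in DIO + HMB tumors and at 6.28, 6.15 and 5.51 in DIO tumors (0.94, SE 0.36, limma adjusted p = 0.705). Its groups had no overlap, where 7.79% of all genes had none, and its highest value was in the tumor with the highest B cell and T cell scores. The gene of lowest p in the other direction was Il23a (−0.20, SE 0.22), and Marcks had −0.10 (SE 0.09) for HMB averaged over diets.

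The signals that push macrophages toward either state also showed no called gene. Of the inflammatory inputs 12 of 14 were measured, with medians of 0.00, 0.10, 0.11 and 0.10 in the 4 comparisons as deposited and of −0.05, −0.04, −0.0048 and −0.07 after centring. Myd88, the adaptor of Toll-like receptors, was at 8.49, 8.44 and 8.51 in DIO and at 8.78, 8.93 and 8.79 in control tumors (−0.36, SE 0.12, limma adjusted p = 0.595), with no overlap, where 11% of all genes had none. Tlr4 differed by 0.15 (SE 0.16) there, and Ifngr1 by 0.26 (SE 0.16) and Csf2 by −0.24 (SE 0.18) in DIO + HMB against DIO.

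Of the alternative inputs 10 of 11 were measured, with medians of 0.04, 0.25, 0.08 and 0.09 as deposited and of −0.01, 0.11, −0.04 and −0.08 after centring. Stat6, the transcription factor that relays interleukin 4 and 13, was at 9.01, 9.25, 9.13 and 8.93 in DIO + HMB and at 8.65, 8.74 and 8.62 in control tumors (0.41, SE 0.14, limma adjusted p = 0.236). Its groups had no overlap, where 14.9% of all genes had none, and centring moved the median of all genes by −0.17 here. Il13 differed by −0.26 (SE 0.19) there, and Il10ra by 0.30 (SE 0.18) in DIO + HMB against DIO tumors.

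Receptors, processing enzymes and metabolic partners of the members formed a list with 19 of 20 genes measured, higher in 11, 16, 16 and 15 of 19 in the 4 comparisons, with medians of 0.17, 0.31, 0.17 and 0.31 and 0 passing. After centring the counts were 11, 11, 12 and 12 of 19 and the medians 0.12, 0.17, 0.05 and 0.14. Of all genes, 53.8%, 55.4%, 47.9% and 51.2% were higher as deposited. Ass1, argininosuccinate synthase, which rebuilds arginine from the citrulline that Nos2 leaves, had the lowest unadjusted p of this list. It was at 3.08, 3.26, 3.39 and 2.97 in DIO + HMB tumors, 2.64, 2.61 and 2.87 in DIO tumors, 2.73, 2.95 and 2.31 in control + HMB tumors, and 3.14, 3.15 and 3.05 in control tumors. DIO + HMB tumors exceeded DIO tumors (0.47, SE 0.16) and control + HMB tumors lay below control tumors, and the interaction was 0.92 (SE 0.23, unadjusted p = 0.0017, limma adjusted p = 0.933). All of these Ass1 values lay below the array medians (3.65 to 3.75), so the differences rest on low signal. Odc1, ornithine decarboxylase, downstream of arginases, was lower on average in DIO + HMB than in DIO tumors (−0.34, SE 0.15, adjusted p = 0.705), and the arginine transporter gene Slc7a1 had an interaction of −0.71 (SE 0.27, adjusted p = 0.933).

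The general macrophage list, with 15 of 16 genes measured, had medians of 0.01, 0.16, 0.07 and 0.09 as deposited and of −0.04, 0.02, −0.05 and −0.08 after centring, with 0 passing. Itgam, the integrin CD11b, was higher in DIO + HMB than in control tumors (0.82, SE 0.24, limma adjusted p = 0.198), and Aif1 was lower (−0.46, SE 0.18, adjusted p = 0.265). In DIO + HMB against DIO tumors, Mertk (0.41, SE 0.21) and Aif1 (−0.34, SE 0.18) were the genes of lowest p in either direction.

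Genes of other cells that surround the macrophages were read from lists of the same kind, and 0 of them passed. Each gene named was picked by lowest p, so it does not stand for its list. After centring, 2 of 8 muscle genes were higher in DIO + HMB against DIO (median −0.40) and 2 of 8 for HMB averaged over diets (−0.31). Tumor epithelium genes were higher in 2 of 7 in DIO + HMB against DIO (−0.19). Neutrophil genes were higher in 8 of 12 there (0.21) and in 6 of 12 for HMB averaged over diets (−0.01). In DIO + HMB against DIO tumors the genes of lowest p were Cxcr2 of neutrophils (1.19, SE 0.23, unadjusted p = 0.000221, limma adjusted p = 0.705), Pecam1 of endothelium (0.62, SE 0.21), Mmrn1 of lymphatic endothelium (0.84, SE 0.29), Cd79b of B cells (1.59, SE 0.73) and Cd3e of T cells (0.82, SE 0.34). For HMB averaged over diets, Cxcr2 differed by 0.95 (SE 0.17, adjusted p = 0.213), Plvap of endothelium by 0.48 (SE 0.16) and Elane of neutrophils by −0.43 (SE 0.15). The dendritic gene Itgax differed by 0.32 (SE 0.12) and Cd209a by −0.82 (SE 0.25) in the same contrast. Mmrn1 was also higher in each DIO + HMB tumor than in any control tumor (1.08, SE 0.29, limma adjusted p = 0.188), where 14.9% of all genes had no overlap. Of the fibroblast genes, Fap differed by 0.80 (SE 0.44) and Lum by −0.61 (SE 0.47) between DIO and control tumors, and Dcn by 0.28 (SE 0.25) between DIO + HMB and DIO tumors. The other genes that the same rule picked in DIO + HMB against DIO tumors were Flt3 (0.62) and Cd209a (−0.66) of dendritic cells, Elane (−0.22), Tek (−0.05), Pdpn (−0.26), Fap (−0.29), Pparg of adipocytes (1.12), Kit (0.41) and Siglecf (−0.09) of mast cells and eosinophils, Epcam (0.50) and Krt18 (−0.39) of tumor epithelium, Acta1 (0.94) and Tnni2 (−0.37) of muscle, and Trp63 (0.26) and Lor (−0.33) of skin, with adjusted p of 0.705 or more. In the comparisons where their lists had the lowest p, Siglecf differed by −0.47 and Prg2 by 0.24 (DIO + HMB against control + HMB), Krt10 by −0.56 and Krt14 by 0.57 (DIO against control), Prox1 by −0.04 (DIO + HMB against control), Acta1 by 0.29 and Tnni2 by −0.40 (HMB averaged over diets), and Klf4 of the alternative list by −0.20 (HMB averaged over diets). Neutrophil scores ran from −0.05 to 0.41 in DIO + HMB, from −0.44 to −0.01 in DIO, from −0.19 to 0.19 in control + HMB and from −0.10 to 0.02 in control tumors. Endothelial scores ran from −0.05 to 0.61 in DIO + HMB, from −0.35 to −0.03 in DIO, from −0.04 to 0.30 in control + HMB and from −0.23 to −0.05 in control tumors. Dendritic cell (−0.51 to 0.47), muscle (−1.61 to 3.71), tumor epithelium (−0.40 to 1.27) and skin (−0.39 to 0.72) scores overlapped between all groups over these ranges of the 13 tumors.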

How the data were processed

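Tumor RNA was hybridised to Affymetrix Mouse Gene 2.1 ST arrays, 1 array to a mouse, and the authors normalized the arrays with RMA. The deposited values are log2 intensities, 1 column to a sample, with array medians between 3.65 and 3.75, and no column stayed without a sample. The sources used here give neither the versions of the authors' tools nor the genome build of the array design. Genes were named through the platform annotation. Of 41345 probe sets, 23521 carried 1 symbol, and the probe set with the highest mean was kept where a gene had several (1082 of 22180 genes).

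A model of the 4 group means was fitted to all 22180 genes and 13 arrays with limma 3.58.1 in R 4.3.3 (empirical Bayes moderation, 9 residual degrees of freedom), with 5 comparisons of groups, the effects averaged over the other factor, the interaction and an F test. Genes were called at a Benjamini-Hochberg adjusted p of 0.05 over all genes, tests were two-sided, and intervals are at 95%. The code was tested on simulated data. Scores are means of log2 values centred on each gene's mean over the 13 arrays. Each array is a different mouse, so the spread is that between animals. The members and lists were chosen with earlier results of these data known. All members are named, together with the 3 genes most alike to each by Pearson r, and from each other list the gene with the lowest unadjusted p in each direction in DIO + HMB against DIO and in the comparison where that list's lowest p fell. Lists of other cell types are also given as scores. The promoter patterns were chosen after their matches were seen, and the sequences are from RefSeq on GRCm38.p6, with no coordinates taken from the array. Alternatives left out each array or each member of the balance, used the replicate number as a block, centred arrays, fitted only the groups compared, used trended robust moderation or plain t statistics, left out genes with low signal, added the width of an array as a covariate, or scaled genes to unit SD. The lists without single tumors or shared genes were computed after seeing the data. The correlations between members, with scores and with the closest genes were computed in R. Promoters and some further correlations were computed with Python 3.11.15 and pandas 2.3.3.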

Additional observations from a re-analysis of the deposited data

Results flagged for a closer look

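Of 13 quantities examined in the 4 DIO + HMB tumors, the only group large enough, 2 had a tumor far from the others of its group, where chance alone flags about 1 in 20. The quantities are the members, the mean of each kind and the balance, so they are not independent. The count therefore cannot show an excess over that rate. Arg1 was at 6.31 in replicate 1 of DIO + HMB and between 3.89 and 4.14 in the other 3 tumors, so that the gap took 0.895 of the whole range. Folr2 was at 8.15 in replicate 2 of DIO + HMB and between 6.10 and 6.43 in the other 3, with a gap of 0.841 of the range. The tumor of the Arg1 value also had the highest B cell (3.99) and T cell (1.33) scores of the 13, and that of the Folr2 value the highest adipocyte (2.54) and endothelial (0.61) scores. The part of these in either value was not tested. Both shares exceed the 95% critical value of Dixon's test for 4 samples.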

How the results depend on the processing

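No member was called under any of the 21 settings (lowest adjusted p = 0.186), and 21 of 40 member differences kept their sign throughout. Centring each array on its median turned Mrc1 in DIO against control (−0.041), Il1b (−0.041), Arg1 (−0.058) and Mrc1 (−0.10) in control + HMB against control, Il12a in DIO + HMB against DIO (−0.078), and Nos2 (−0.015), Cd40 (−0.15) and Tnf (−0.13) in DIO + HMB against control. Leaving out both DIO replicate 3 and DIO + HMB replicate 1, chosen after seeing the data, turned Tnf in DIO against control (0.0045), Il12a (−0.072), Tnf (−0.024) and Cd163 (−0.29) in DIO + HMB against DIO, and Cd40 (−0.22), Tnf (−0.019) and Arg1 (−0.35) in DIO + HMB against control. Leaving out 1 tumor at a time turned signs within these ranges. For DIO against control they were −0.38 to 0.089 (Nos2), −0.40 to 0.071 (Tnf) and −0.10 to 0.21 (Mrc1). For control + HMB against control they were −0.064 to 0.53 (Nos2), −0.28 to 0.37 (Il1b), −0.25 to 0.22 (Cd40), −0.37 to 0.58 (Arg1), −0.13 to 0.14 (Mrc1) and −0.20 to 1.10 (Mgl2). For DIO + HMB against DIO they were −0.13 to 0.40 (Il1b), −0.25 to 0.27 (Il12a), −0.084 to 0.45 (Tnf), −0.011 to 0.29 (Mrc1), −0.45 to 0.74 (Cd163) and −1.52 to 0.73 (Folr2). For DIO + HMB against control they were −0.030 to 0.44 (Nos2), −0.22 to 0.20 (Cd40), −0.28 to 0.31 (Tnf) and −0.35 to 0.71 (Arg1). The balance ranged from −1.86 to −0.97 for DIO against control, −0.78 to −0.22 for control + HMB against control, 0.08 to 0.97 for DIO + HMB against DIO and −1.01 to −0.76 for DIO + HMB against control. Replicate numbers did not pair the tumors: deviations of same-numbered tumors correlated between −0.19 and 0.30, with 2 of 15 pairs above 0.1. With the number as a replicate block, 0 members were called, Folr2 differed by 1.76 and Cd163 by 1.06 in DIO + HMB against control, and replicate 4 of DIO + HMB, alone with its number, dropped out. Nos2 and Il12a were not tested once genes below the median signal were left out. No other probe set could be tried, since each member had 1. The causes of these changes were not tested.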
